A study of Mus musculus with 28 samples.

Results

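The genes described here are 41 genes of the synaptic vesicle and its release machinery, taken by matching a list of symbols against the gene symbols of the deposited files. All 41 symbols were among the 23309 listed, and all 41 reached the mean of 1 FPKM (fragments per kilobase of transcript, scaled to the number of mapped fragments) asked of a gene before it was tested, as did 12760 genes in all. They comprise 9 SNARE proteins and proteins that handle SNAREs, 9 calcium sensors and complexins, 12 vesicle proteins, 8 active zone proteins and 3 proteins of vesicle retrieval. RNA came from the striatum of C57BL/6J mice, 16 given haloperidol, an antipsychotic that blocks dopamine D2 receptors, and 12 given placebo. The series title calls the exposure chronic. Libraries belong to 2 labelled batches, with 8 haloperidol and 8 placebo libraries in batch 1 and 8 haloperidol and 4 placebo libraries in batch 2. Libraries are named here by group and by the mouse number of their label, given as a replicate number.

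A synaptic vesicle is filled with transmitter, docked at the active zone of a nerve terminal, primed, and fused with the cell membrane when calcium enters. SNARE proteins on both membranes zip together to drive fusion, complexins and synaptotagmins make it wait for calcium, and scaffold proteins hold vesicles close to calcium channels. Dynamin and its partners then take the membrane back. Messenger RNA lies mostly in cell bodies, so RNA from striatum alone would report mainly on release genes of local spiny projection neurons and interneurons. Axons from cortex, thalamus and midbrain bring the proteins with little of the RNA. Cortical cell bodies within a dissection would add RNA of their own.

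All 10 spiny projection neuron markers were above 1 FPKM in every library, with a summed level of 2817 ± 466 with haloperidol and 2469 ± 604 with placebo (SD, n = 16 and n = 12, as for every ± below unless said). The 10 cortical excitatory neuron markers were also above 1 FPKM in every library, with sums of 500.4 ± 120.0 and 501 ± 102. The 6 choroid plexus markers summed to between 21.7 and 9367. Fewer cells of a type and less RNA per cell cannot be told apart in such bulk samples. The RNA integrity number (RIN) of the labels ran from 7.08 to 8.97, and the sum of all FPKM in a library from 380952 to 575171. Read totals were not used here, so the depth of a library is known only relative to the others, from 0.433 to 1.73. The half-width of the Cufflinks interval was 5.84% to 10.7% of the FPKM for member transcripts, as a median per library.

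None of the 41 genes was called different between haloperidol and placebo. The count was 0 of 41 at an adjusted p under 0.05 (limma, Benjamini-Hochberg over all genes tested), beside 0.00784% of the 12760 genes. At an unadjusted p under 0.05 there were 3 members, beside 6.41% of all genes: Rab3b lay higher with haloperidol, and Rims3 and Pclo lay lower. With single libraries left out this count ran from 1, as without placebo replicate 16, to 8, without placebo replicate 2. The share of all genes moved too, to 3.94% and 13.1% without those 2 libraries. The members' count moved by over 1.5 times for 19 of the 28 libraries. The adjusted p of a member in limma was between 0.568 and 0.964, and the groups overlapped for every member. Differences are given as log2 differences of scaled FPKM with 0.5 added, which understates the change of low genes. They were above 0 for 12 members and below 0 for 29, where 50.9% of all genes were above 0. With libraries scaled to a common FPKM sum 7 members were above 0, beside 31.3% of all genes. After quantile normalization 5 were, beside 50.6%. The members' median was -0.093, beside 0.0038 over all genes. Within treatment and batch, the median log2 level of the members had an SD of 0.261 between libraries. For 31 of the 41 genes both ends of the 95% confidence interval were within 0.5 of 0, and for the others at least one end was farther away, up to 1.65 from 0.

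**Figure D1:**
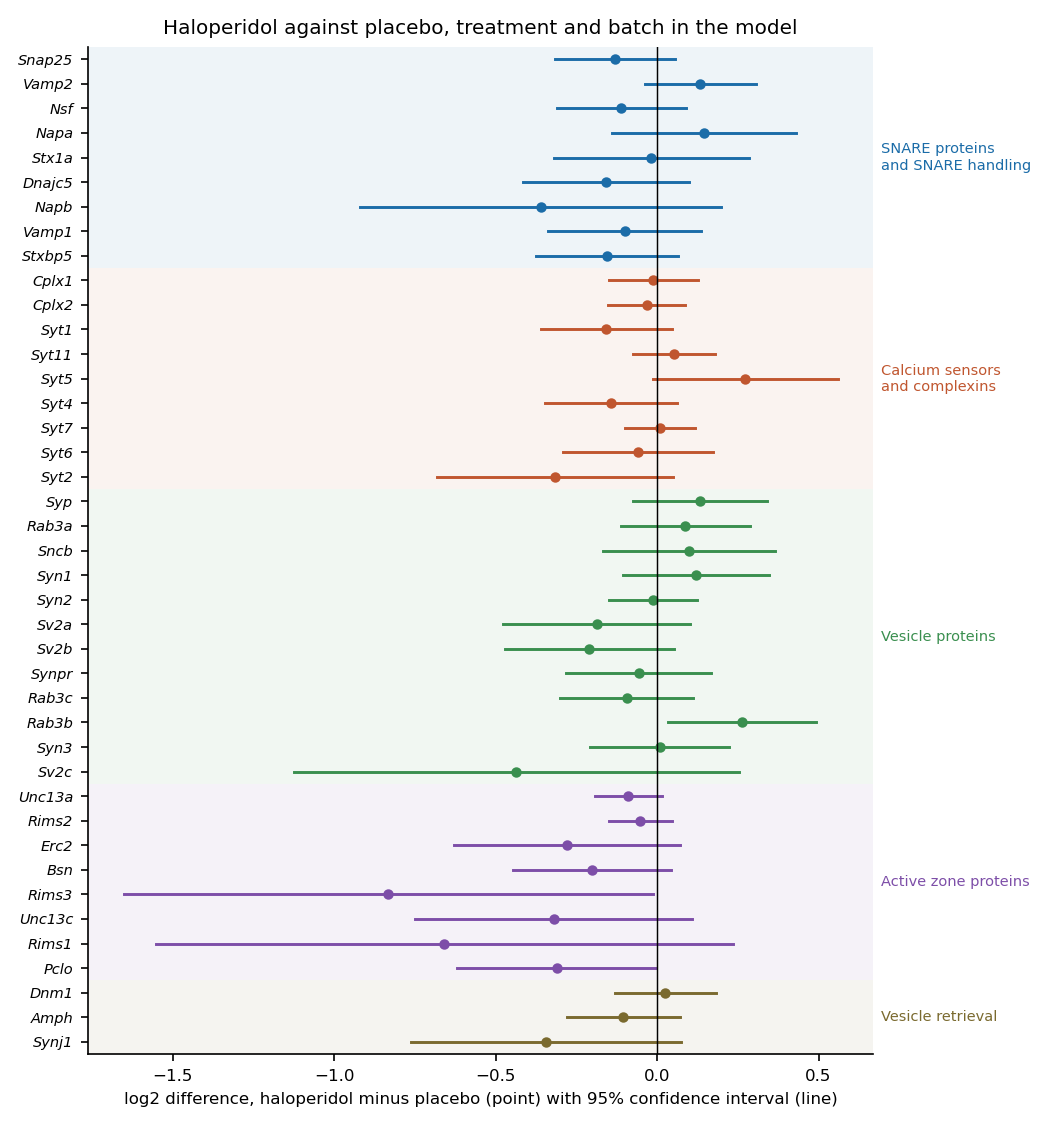
Log2 difference of haloperidol against placebo for each of the 41 genes (horizontal axis), with its 95% confidence interval from limma, coloured by role. All 8 active zone genes lie left of 0, and the intervals of Rims1, Rims3 and Sv2c are the widest of the 41.

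On the FPKM scale, which allows for transcript length, Snap25 had the highest mean level of the members at 1199.7 over all 28 libraries, followed by Vamp2 at 593, Syp at 541 and Rab3a at 425. Sv2c was lowest at 2.57, with Syn3 at 3.43 and Syt2 at 5.68 next. Active zone genes were low, from 38.2 for Unc13a to 6.65 for Pclo. Neighbours in this order often did not differ beyond their spread: Cplx1 ran from 265 to 394, Cplx2 from 268 to 379.7 and Sncb from 189.5 to 464. The coefficient of variation over libraries had a median of 21.6% for the members and 21.5% for all genes. Rims2 at 7.84%, Syt7 at 8.76% and Unc13a at 8.998% were the steadiest members, and Rims1 at 81.9%, Sv2c at 80.2% and Rims3 at 77.4% the least steady.

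**Figure D2:**
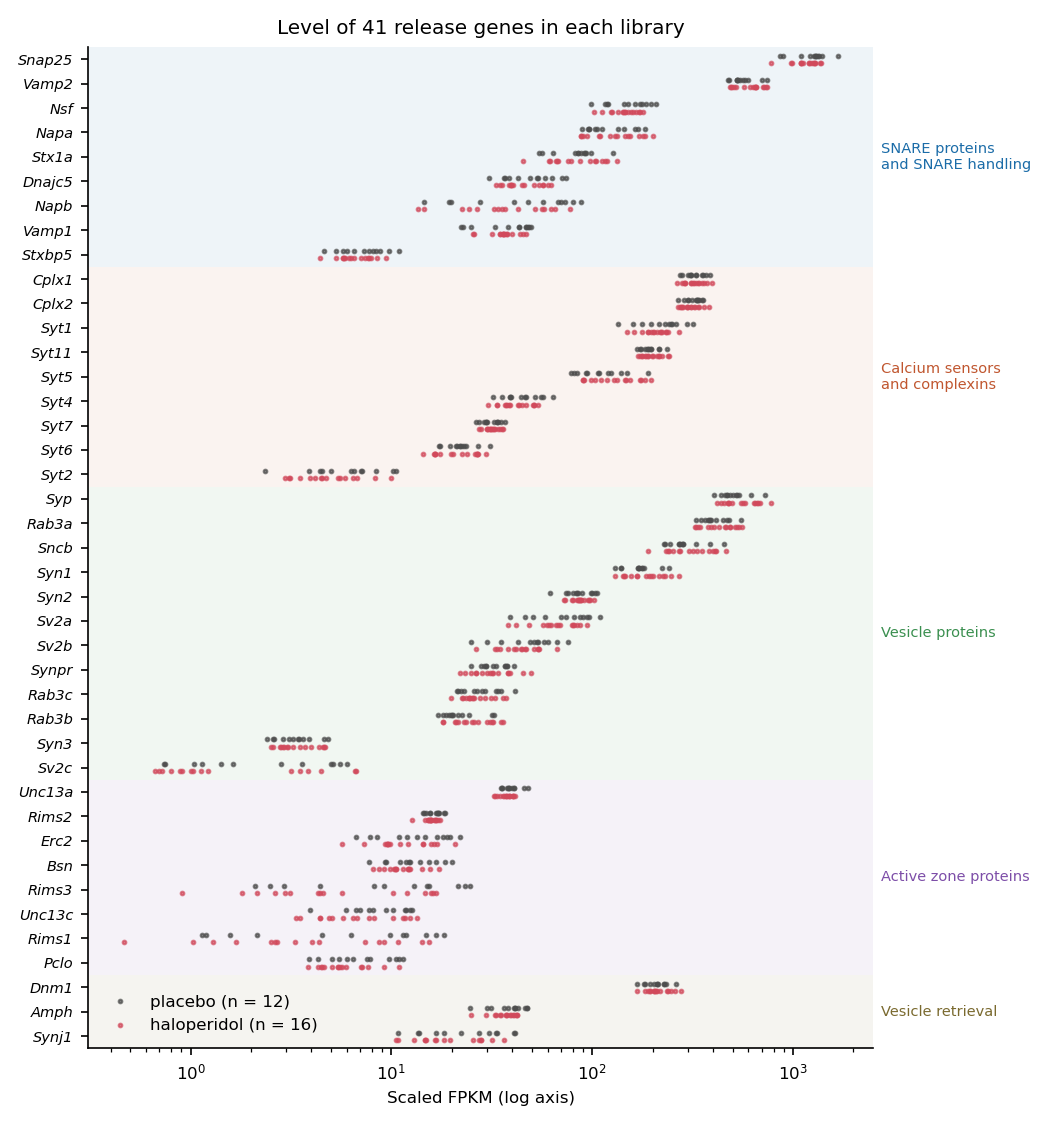
Scaled FPKM of each member in each of the 28 libraries on a log axis, by group, with genes arranged by role. The groups overlap for all 41 genes, and Rims1, Rims3 and Sv2c spread more than the others.

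Among the SNARE genes, 2 of 9 lay above 0 and the median log2 difference was -0.11. Snap25, on chr2:136539186-136608164 (mm9, plus strand), encodes a SNARE of the target membrane. Its scaled FPKM ran from 776 to 1385 with haloperidol, with a median of 1199.8, and from 862 to 1671 with placebo, with a median of 1296. The placebo libraries held the highest value and the haloperidol libraries the lowest, over a wide common range. Means were 1164 ± 159.6 and 1247 ± 219, a log2 difference of -0.13 (SE 0.0904, unadjusted p = 0.162, limma adjusted p = 0.568), with 2 of 16 mice given haloperidol higher than their batch's placebo mean.

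Vamp2, the vesicle SNARE of fast release, was at 613 ± 89.9 with haloperidol and 565 ± 81.7 with placebo, a log2 difference of 0.13 that turned to -0.032 after quantile normalization. Its relative Vamp1 was far lower, at 36.5 ± 5.85 and 38.9 ± 10.5, with a log2 difference of -0.10. Stx1a, the partner of Snap25 in the target membrane, was at 87.1 ± 25.4 and 84.7 ± 20.04. Nsf, the ATPase that takes spent SNARE bundles apart, was at 145 ± 22.1 and 154 ± 35.5, a log2 difference of -0.11. Its adaptors differed in sign, with Napa (alpha-SNAP) at 134 ± 36.7 and 124 ± 33.002 and Napb (beta-SNAP) at 40.8 ± 19.02 and 50.4 ± 25.8, log2 differences of 0.15 and -0.36. Dnajc5, a co-chaperone of the vesicle, was at 45.8 ± 9.698 and 50.6 ± 14.1. Stxbp5 (tomosyn), which binds SNAREs and holds back fusion, was at 6.72 ± 1.304 and 7.42 ± 1.87. The log2 differences of Stx1a, Dnajc5 and Stxbp5 were -0.017, -0.16 and -0.15.

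Calcium sensors and complexins had 3 of 9 genes above 0 and a median of -0.032. Cplx1, on chr5:108947573-108979046 (mm9, minus strand), encodes a small protein that clamps the SNARE bundle and then helps it fuse. It ran from 265 to 394 with haloperidol, with a median of 320.4, and from 272 to 386 with placebo, with a median of 319. The ranges were nearly the same, with a log2 difference of -0.011 (SE 0.0678, unadjusted p = 0.870, limma adjusted p = 0.922). Cplx2 was at 310.4 ± 32.2 and 321 ± 27.4, a log2 difference of -0.032. Syt1, the fast calcium sensor, was at 207 ± 30.7 with haloperidol and 227 ± 54.1 with placebo, a log2 difference of -0.16.

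Syt5 had the smallest unadjusted p of the sensors, and encodes a synaptotagmin. It lies on chr7:4491367-4498169 (mm9, minus strand), and ran from 89.97 to 197 with haloperidol, with a median of 131, and from 78.1 to 189 with placebo, with a median of 107. Both groups covered most of the same range, and 11 of 16 mice given haloperidol lay higher than their batch's placebo mean. Means were 134 ± 35.6 and 114 ± 32.9, a log2 difference of 0.27 (SE 0.14, unadjusted p = 0.061, limma adjusted p = 0.568). Syt2, a fast sensor, lay the other way. It lies on chr1:136543258-136645994 (mm9, plus strand) and ran from 2.95 to 9.94 with haloperidol, with a median of 4.62, and from 2.34 to 10.6 with placebo, with a median of 6.38. Placebo libraries held both the lowest and the highest value. Means were 5.17 ± 1.95 and 6.35 ± 2.503, a log2 difference of -0.32 (SE 0.18, unadjusted p = 0.086, limma adjusted p = 0.568), with 4 of 16 mice given haloperidol higher than their batch's placebo mean.

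Syt7, a slow sensor of high calcium affinity, was the steadiest of the sensors at 31.7 ± 2.48 and 31.5 ± 3.22. Syt11, a synaptotagmin that does not bind calcium, was at 199 ± 22.6 and 194 ± 19.5. Syt4 was at 41.99 ± 7.29 and 45.9 ± 9.57 and Syt6 at 21.6 ± 5.02 and 22.3 ± 3.82. Log2 differences were 0.0090 for Syt7, 0.052 for Syt11, -0.14 for Syt4 and -0.058 for Syt6, and those of Syt7 and Syt11 were below 0 with the common FPKM sum and after quantile normalization.

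Vesicle proteins were split evenly, with 6 of 12 genes above 0 and a median of -0.0021. Syp (synaptophysin), on chrX:7215706-7230382 (mm9, plus strand), encodes an abundant membrane protein of the vesicle. It ran from 420.3 to 776 with haloperidol, with a median of 557, and from 404 to 729 with placebo, with a median of 493. The ranges shared all but their ends, with a log2 difference of 0.13 (SE 0.10, unadjusted p = 0.200, limma adjusted p = 0.568), and the difference was -0.044 after quantile normalization. The small GTPase Rab3a, which takes part in docking, was at 435 ± 79.05 and 411 ± 63.3, and Sncb (beta-synuclein) at 317 ± 79.6 and 295 ± 66.02. Synapsins tether vesicles to each other and to actin. Syn1 was at 188 ± 41.2 and 174 ± 31.9, Syn2 at 86.9 ± 8.38 and 86.7 ± 13.1, and Syn3 at 3.45 ± 0.761 and 3.39 ± 0.772. These 3 had log2 differences of 0.12, -0.012 and 0.0078.

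The Sv2 genes encode transporter-like proteins of the vesicle membrane, and all 3 lay below 0. Sv2a was at 67.4 ± 16.4 with haloperidol and 74.7 ± 22.2 with placebo, a log2 difference of -0.19. Sv2b was at 44.4 ± 10.2 and 49.9 ± 14.9, a difference of -0.21, and Sv2c, known for its place in the basal ganglia, at 2.33 ± 2.11 and 2.899 ± 2.05, a difference of -0.44. None of them was called. Synpr (synaptoporin), a relative of synaptophysin, was at 32.5 ± 7.82 and 33.004 ± 4.88, and Rab3c at 27.01 ± 4.93 and 28.5 ± 6.34.

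Rab3b, a relative of Rab3a, had the smallest unadjusted p of all members. It lies on chr4:108551675-108615929 (mm9, plus strand) as 1 listed transcript of 5 exons, and ran from 18.1 to 35.8 with haloperidol, with a median of 25.5, and from 17.1 to 32.6 with placebo, with a median of 20.1. All 4 placebo libraries of batch 2 lay at or below 19.9, while 3 placebo libraries of batch 1 lay at 24.3, 31.7 and 32.6, within the haloperidol range. Means were 26.2 ± 5.79 and 22.2 ± 5.05, a log2 difference of 0.26 (SE 0.11, unadjusted p = 0.026, limma adjusted p = 0.568), with 12 of 16 mice given haloperidol higher than their batch's placebo mean. The log2 difference was 0.15 in batch 1 alone and 0.43 in batch 2 alone. Rab3b shares 317 exon bases with 8030443G20Rik on the other strand, which was at 3.13 FPKM. Smaller overlaps of this kind were found for Synj1 (60 bases), Sv2b (43), Rab3a (38) and Syn1 (11). Libraries are described as strand-specific in the labels, yet the kit named there, TruSeq RNA v2, does not mark strand. Use of strand by Cufflinks is not stated there, and reads of these 5 genes could then have been shared with the partner.

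The 250 bases before the start of Rab3b are shown because it is the member with the smallest p. Capitals mark letters that match 1 of 4 motifs, the GC box GGGGCGGGG, the TATA box TATAAA, the cyclic AMP response element TGACGTCA and the E-box CACGTG, each searched on both strands. The window is chr4:108878820-108879069 (plus strand) of RefSeq's GRCm38.p6, a later build than the mm9 of the files.
Rab3b: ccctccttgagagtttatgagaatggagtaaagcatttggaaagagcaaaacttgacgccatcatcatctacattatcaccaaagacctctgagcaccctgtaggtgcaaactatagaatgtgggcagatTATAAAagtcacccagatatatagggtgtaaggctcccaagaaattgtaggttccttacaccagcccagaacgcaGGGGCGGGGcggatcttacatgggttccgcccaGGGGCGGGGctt
It holds 1 TATA box and 2 GC boxes. Of the members 33 had an entry, as 44 windows, and 13 of these (29.5%) held a GC box, beside 10.4% of all 32851 windows of the same length. TATAAA was in 3 (6.82%, beside 12.4%), CACGTG in 5 (11.4%, beside 6.02%) and TGACGTCA in 1, that of Syn1 (2.27%, beside 1.55%). The median GC content was 60.8% in member windows and 52.4% in all windows, and its part in the GC box share was not tested. Windows of a gene can overlap, and 2 windows of Syt6 hold the same GC box and E-box. A match describes the letters of a window and is no evidence of binding.

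All 8 active zone genes lay below 0, with a median log2 difference of -0.29, and none was called. No gene of the 8 changed sign under the other scalings, but the median was -0.095 with the log2 FPKM sum in the model. Levels of 6 of the 8 rose with RIN, beside 33.5% of all genes. In each batch alone 0 of 8 were above 0, beside 49.9% of all genes in batch 1 and 51.0% in batch 2. Their medians were -0.13 in batch 1 and -0.48 in batch 2. The 8 genes were measured in the same libraries and are not independent points. Unc13a (Munc13-1), the priming factor on chr8:74150612-74195656 (mm9, minus strand), was the most abundant of them. It ran from 32.4 to 41.5 with haloperidol, with a median of 37.5, and from 35.2 to 47.9 with placebo, with a median of 38.5. The ranges overlapped for the most part, and 3 of 16 mice given haloperidol lay higher than their batch's placebo mean. Means were 37.3 ± 2.7997 and 39.5 ± 3.92, a log2 difference of -0.089 (SE 0.0504, unadjusted p = 0.089, limma adjusted p = 0.568).

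Rims3 had the largest difference of any member. It encodes RIM gamma, a short protein of the RIM family, on chr4:120550474-120564165 (mm9, plus strand), and its 1 listed transcript has 977 bases. It ran from 0.9103 to 16.8 with haloperidol, with a median of 4.48, and from 2.11 to 24.6 with placebo, with a median of 11.1. The 3 highest placebo values, 21.5, 23.4 and 24.6, lay above all haloperidol values, and the 2 lowest haloperidol values, 0.9103 and 1.797, below all placebo values. Means were 7.37 ± 5.81 and 11.9 ± 8.27, a log2 difference of -0.83 (SE 0.40, unadjusted p = 0.047, limma adjusted p = 0.568), with 2 of 16 mice given haloperidol higher than their batch's placebo mean. Its 95% interval reached from -1.65 to -0.012.

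Pclo (Piccolo), a giant scaffold protein, was the other member below 0 at an unadjusted p under 0.05. It lies on chr5:14514918-14863459 (mm9, plus strand) and ran from 3.86 to 10.97 with haloperidol, with a median of 5.51, and from 3.89 to 11.4 with placebo, with a median of 7.01. The lowest and highest values of both groups were nearly the same. Means were 6.05 ± 1.92 and 7.44 ± 2.66, a log2 difference of -0.31 (SE 0.15, unadjusted p = 0.049, limma adjusted p = 0.568), with 3 of 16 mice given haloperidol higher than their batch's placebo mean.

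Rims1, the RIM protein that binds Rab3 and calcium channels, was at 5.61 ± 4.75 with haloperidol and 8.31 ± 6.33 with placebo, a log2 difference of -0.66. Erc2, a scaffold partner of RIM, was at 12.002 ± 4.03 and 14.1 ± 5.05, and Bsn (Bassoon), a giant scaffold protein like Piccolo, at 11.5 ± 2.45 and 13.2 ± 3.79. Unc13c (Munc13-3) was at 7.47 ± 3.36 and 8.96 ± 2.84. Rims2 was at 15.8 ± 1.13 and 16.4 ± 1.37. The last 4 had log2 differences of -0.28, -0.20, -0.32 and -0.051.

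Of the retrieval genes, Dnm1 (dynamin 1), the GTPase that cuts the endocytic neck, was the most abundant. It lies on chr2:32163991-32208824 (mm9, minus strand) and ran from 166 to 276 with haloperidol, with a median of 207, and from 167 to 262 with placebo, with a median of 211. The ranges were nearly the same, with a log2 difference of 0.026 (SE 0.0765, unadjusted p = 0.740, limma adjusted p = 0.848), and the sign turned with the common FPKM sum and after quantile normalization. Amph (amphiphysin), which brings dynamin to curved membrane, was at 36.8 ± 4.87 and 38.96 ± 7.24, and Synj1 (synaptojanin), a lipid phosphatase of clathrin uncoating, at 20.4 ± 7.95 and 25.2 ± 10.8. Their log2 differences were -0.10 and -0.34.

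**Figure D3:**
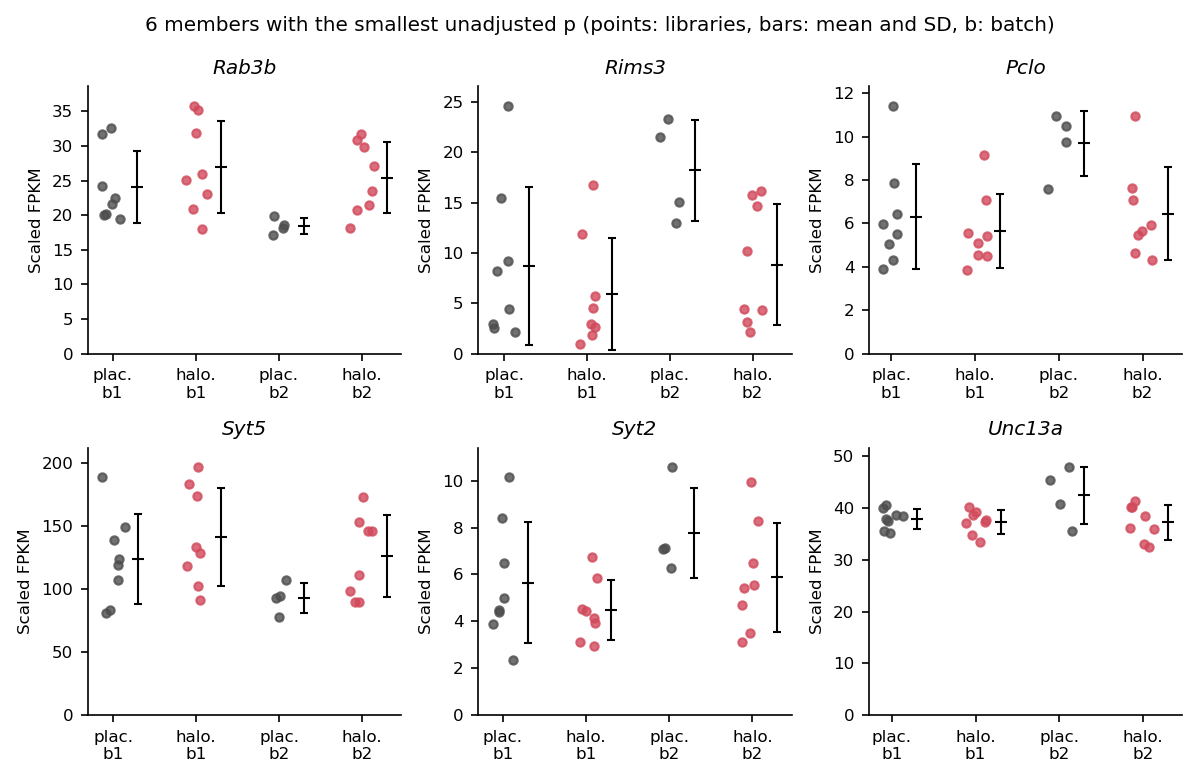
Scaled FPKM of the 6 members with the smallest unadjusted p, by group and batch, with each library as a point and the mean and SD as bars. In batch 2 the 4 placebo libraries reach from 17.1 to 19.9 for Rab3b and from 12.9 to 23.4 for Rims3, at opposite ends of the range of the 8 haloperidol libraries.

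Differences were larger in batch 2, which has 4 placebo libraries, than in batch 1. In batch 1 alone 0 members had an unadjusted p under 0.05, beside 0.713% of all genes. In batch 2 alone 15 members did, beside 17% of all genes: Rab3b above 0, and Stxbp5, Nsf, Napb, Dnajc5, Syt1, Sv2a, Sv2b, Rims1, Rims3, Bsn, Pclo, Erc2, Amph and Synj1 below. The smallest adjusted p of a member in limma was 0.281 in batch 2 and 1 in batch 1, so none was called in either. The treatment-by-batch term called 0 members, beside 0.0% of all genes, and 0 members had an unadjusted p under 0.05 for it, beside 1.60% of all genes. Their smallest unadjusted p for that term in limma was 0.126, so the larger differences of batch 2 were not shown to differ from those of batch 1.

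The mean FPKM sum was lower with placebo in both batches, and mean RIN was lower with placebo in batch 1 and higher in batch 2. Each gap was smaller than the SD of the haloperidol libraries of its batch. That of the FPKM sum in batch 2 was larger than the placebo SD. None of these gaps was tested. In batch 2 the FPKM sum was 406928 ± 18307 in the 4 placebo and 457641 ± 56082 in the 8 haloperidol libraries, with RIN of 8.43 ± 0.562 and 8.28 ± 0.510. In batch 1 the sums were 473907 ± 66455 and 486223 ± 64816, and RIN was 7.67 ± 0.354 and 7.83 ± 0.410, each over 8 libraries.

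Markers of the ventricle lining lay higher with haloperidol in batch 2, without a call. The 6 choroid plexus markers had a median log2 difference of 0.15 in batch 1, with 4 of 6 above 0, and of 1.07 in batch 2, with 6 of 6 above 0. The 6 ependymal markers had medians of 0.045 in batch 1, with 4 of 6 above 0, and 1.02 in batch 2, with 6 of 6 above 0. In batch 2 the choroid plexus sum ran from 179 to 2199.6 in the placebo and from 1081 to 5098 in the haloperidol libraries, and the ependymal sum from 22.3 to 44.8 and from 43.03 to 107. In batch 1 the choroid plexus sum ran from 21.7 to 7848 and from 109.7 to 9367. The ependymal sum of batch 1 ran from 28.7 to 147 and from 38.3 to 133. None of these 12 markers was at 0 in any library, and none was called. Their part in the members' differences was not tested.

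Adding the FPKM sum or RIN to the model moved the members' medians in opposite directions. With the log2 FPKM sum in the model, the active zone median was -0.095 instead of -0.29, with 0 of 8 genes above 0, and the members' median was -0.027, with 11 of 41 above 0 beside 44.9% of all genes. At an unadjusted p under 0.05 there were then 4 members, Rab3b, Syt5, Rims3 and Syn3, beside 7.70% of all genes, and the smallest adjusted p in limma was 0.565. In that model the log2 difference was -0.34 for Rims3, -0.14 for Pclo, -0.11 for Rims1 and 0.15 for Rab3b. With RIN in the model the active zone median was -0.31, with 0 of 8 genes above 0, and the members' median -0.10, with 11 of 41 above 0 beside 51.0% of all genes. In that model 10 members had an unadjusted p under 0.05, beside 22.1% of all genes. Of these Vamp2, Syt5 and Rab3b lay above 0, and Rims1, Rims3, Pclo, Erc2, Unc13c, Synj1 and Syt2 below. Their smallest adjusted p in limma was 0.220, and 0 members were called, beside 0.0157% of all genes.

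Transcripts of the members were also tested one by one. The files list 69 member transcripts, 26 members having 1 and 15 having several, and 60 reached a mean of 1 FPKM. None was called, beside 0.00653% of all transcripts, and 4 had an unadjusted p under 0.05, beside 6.17%. After the single transcript of Rab3b came the 30-exon form of Rims1, which ran from 0.0000000691 to 4.24 with haloperidol, with a median of 0.6403, and from 0.0000445 to 5.62 with placebo, with a median of 2.01. The groups overlapped, and the form was near 0 in many libraries, with a log2 difference of -1.06 (SE 0.46, unadjusted p = 0.029, limma adjusted p = 0.618). The 20-exon form of Pclo, of 16859 bases, was at 4.93 ± 1.46 and 6.05 ± 2.004. The 9-exon form of Syt7 was at 17.2 ± 7.62 and 14.1 ± 9.39, a log2 difference of 0.62 (SE 0.30, unadjusted p = 0.047, limma adjusted p = 0.618), while the sum over the 3 forms of Syt7 differed by 0.0090. The fifth was the single transcript of Rims3.

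Shares of a transcript within its gene could be tested for 30 transcripts of 14 members. None was called, beside 0.0% of all shares, and 0 had an unadjusted p under 0.05, beside 5.26%. The smallest p was that of the 31-exon form of Rims1, which made up 20.001% ± 17.7 and 14.9% ± 9.26 of the gene with haloperidol and with placebo (unadjusted p = 0.051, limma adjusted p = 0.810). Next came the main form of Dnajc5 at 93.3% ± 5.55 and 90.6% ± 5.48 and the 27-exon form of Rims1 at 46.4% ± 25.2 and 32.4% ± 20.1. The 11-exon form of Syt7 was at 21.5% ± 12.96 and 27.3% ± 14.8, and the 30-exon form of Rims1 at 15.5% ± 19.1 and 24.4% ± 18.8. These SDs show that the split between the forms of Rims1 and of Syt7 varied widely from library to library.

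Between the batches no member was called, beside 0.376% of all genes for batch 2 against batch 1. At an unadjusted p under 0.05, 16 members were higher in batch 2, beside 12.5% of all genes, and 0 were lower, beside 14.2%. The members' median log2 difference was 0.15, with 29 of 41 above 0, where 48.6% of all genes were. Sv2b had the smallest p, at 41.6 ± 11.5 in the 16 libraries of batch 1 and 53.7 ± 10.5 in the 12 of batch 2 (log2 difference 0.43, SE 0.13, limma adjusted p = 0.104). Syt1 (0.28), Nsf (0.27), Sv2a (0.37), Vamp1 (0.30) and Napb (0.69) followed, all as log2 differences. Of the members below 0, those with the smallest p were Napa (-0.25), Syt5 (-0.24), Cplx2 (-0.10), Rab3b (-0.18), Syt11 (-0.091) and Vamp2 (-0.12). RIN was 7.75 ± 0.379 in batch 1 and 8.33 ± 0.507 in batch 2, the FPKM sum 480065 ± 63733 and 440737 ± 52118, and the summed cortical neuron markers 472 ± 130.3 and 539 ± 64.5. Their part in the batch difference was not tested. With limma's array weights, which give libraries that stand apart less weight, 25 members were called, as were 51.8% of all genes.

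Levels of 31 of the 41 members were related to RNA integrity, as were those of 69.7% of all genes. In a model with treatment, batch and RIN, 19 members rose with RIN, beside 33.5% of all genes, and 12 fell, beside 36.3%, at an adjusted p under 0.05. The split depends on scaling. With libraries scaled to a common FPKM sum, 31 members rose, beside 61.9% of all genes, and 2 fell, beside 13.4%. After quantile normalization 33 rose, beside 34.9%, and 3 fell, beside 34.0%. The median slope over all genes was 0.34 log2 units per RIN unit with the common sum, -0.015 with the median-of-ratios scaling used throughout, and 0.0019 after quantile normalization. The same 19 members rose under all 3 scalings, and Napa and Syt5 alone fell under all 3. Of the 12 that fell with median-of-ratios scaling, Cplx2 and Syt11 rose with the common sum, and these, Vamp2, Syp and Rab3a rose after quantile normalization.

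**Figure D4:**
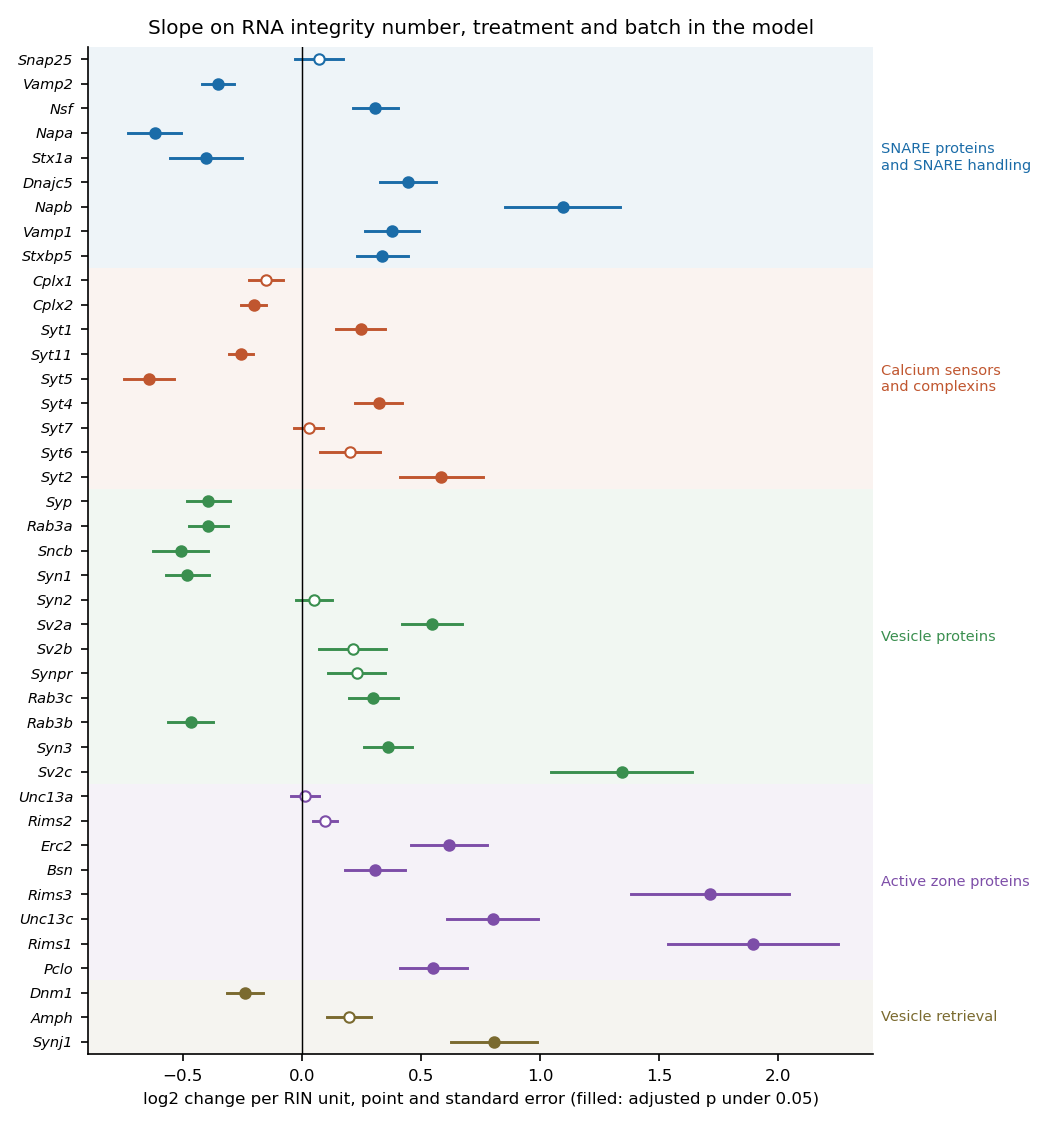
Slope of each member on RIN in log2 units per RIN unit (horizontal axis) with its standard error, from limma with treatment and batch in the model and median-of-ratios scaling, filled where the adjusted p was under 0.05. Rims1, Rims3, Sv2c and Napb have the steepest upward slopes, and Syt5 and Napa the steepest downward.

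Rims1 and Rims3 had the steepest slopes. Rims1 rose by 1.89 log2 units per RIN unit (SE 0.36) and Rims3 by 1.71 (SE 0.33). In the library with the lowest RIN of 7.08, placebo replicate 4, Rims1 was at 1.56 and Rims3 at 2.11. In the library with the highest RIN of 8.97, placebo replicate 22, they were at 14.8 and 23.4. Single libraries departed from this order: placebo replicate 32, at a RIN of 7.73, had 16.7 and 21.5, and haloperidol replicate 33, at a RIN of 8.75, had 3.32 and 4.33. The FPKM sums of those 2 libraries were 402459 and 475902. The next slopes were 1.34 for Sv2c, 1.10 for Napb, 0.81 for Synj1, 0.80 for Unc13c, 0.62 for Erc2, 0.59 for Syt2, 0.55 for Pclo and 0.55 for Sv2a. Among the active zone genes 6 of 8 rose, beside 33.5% of all genes. Rims2 (0.10) and Unc13a (0.015) were not called, though both rose under the other scalings.

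Windows of 250 bases before the start of Rims1 and Rims3 are shown because these genes had the steepest slopes, and those of Napa and Napb because this pair of related genes moved in opposite directions. Capitals mark the same motifs as for Rab3b. In GRCm38.p6 they are chr1:22806159-22806408 (minus strand), chr4:120854549-120854798 (plus strand), chr7:16098330-16098579 (plus strand) and chr2:148732421-148732670 (minus strand).
Rims1: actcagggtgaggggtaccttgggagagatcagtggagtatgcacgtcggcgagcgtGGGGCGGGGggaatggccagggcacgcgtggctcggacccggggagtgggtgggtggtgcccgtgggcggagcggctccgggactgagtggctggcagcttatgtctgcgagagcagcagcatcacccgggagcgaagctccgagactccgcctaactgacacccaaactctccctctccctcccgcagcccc
Rims3: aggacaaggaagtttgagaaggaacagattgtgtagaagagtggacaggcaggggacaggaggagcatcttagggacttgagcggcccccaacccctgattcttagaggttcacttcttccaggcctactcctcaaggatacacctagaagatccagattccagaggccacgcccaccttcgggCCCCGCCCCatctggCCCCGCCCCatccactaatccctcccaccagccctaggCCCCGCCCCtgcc
Napa: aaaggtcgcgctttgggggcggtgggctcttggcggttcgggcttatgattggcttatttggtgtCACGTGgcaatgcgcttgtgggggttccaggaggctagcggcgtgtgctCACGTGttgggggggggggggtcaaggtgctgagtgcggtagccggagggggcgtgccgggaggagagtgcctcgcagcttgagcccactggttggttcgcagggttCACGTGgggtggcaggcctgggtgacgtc
Napb: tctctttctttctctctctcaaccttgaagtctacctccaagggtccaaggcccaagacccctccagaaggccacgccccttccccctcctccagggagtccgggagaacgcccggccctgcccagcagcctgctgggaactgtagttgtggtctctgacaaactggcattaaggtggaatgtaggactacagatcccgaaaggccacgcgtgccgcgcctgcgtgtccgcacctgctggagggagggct
Rims1 holds 1 GC box and Rims3 holds 3, read on the other strand as CCCCGCCCC. Napa holds 3 E-boxes, and Napb none of the 4 motifs.

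Close relatives among the members differed in their slopes. Alpha-SNAP and beta-SNAP are both adaptors of Nsf, and Napa had a slope of -0.62 log2 units per RIN unit (SE 0.11) while Napb had one of 1.10 (SE 0.24). In placebo replicate 4 Napa was at 182 and Napb at 19.8, and in placebo replicate 22 they were at 95.3 and 72.97. The slopes of Napa and Napb were -0.23 and 1.48 with the common sum and -0.26 and 1.26 after quantile normalization. Syt5 had a slope of -0.64 (SE 0.11), and of -0.25 and -0.29 under those scalings, while Syt1, Syt2 and Syt4 rose by 0.25, 0.59 and 0.32. Rab3b had a slope of -0.46, was not called with the common sum (-0.085) and fell after quantile normalization (-0.34). Snap25, the most abundant member, was not called (0.072) but rose under the other scalings (0.46 and 0.73).

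**Figure D5:**
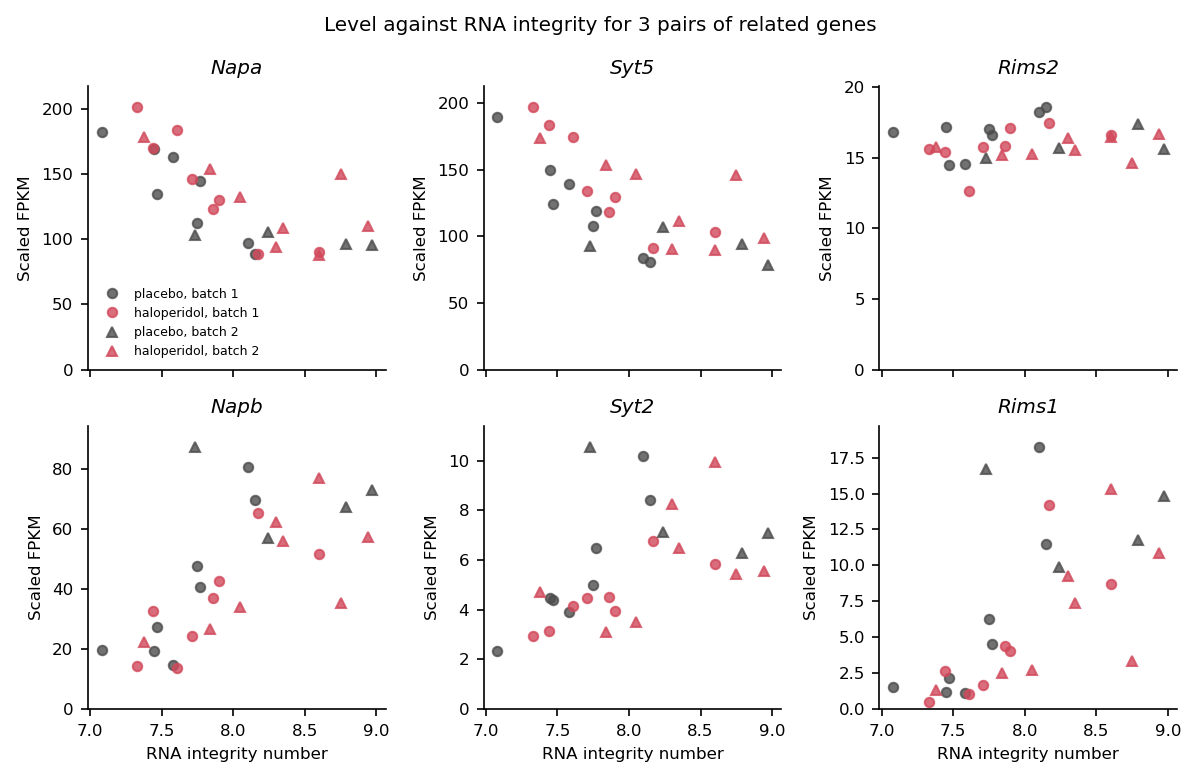
Scaled FPKM (vertical axes) against RIN (horizontal axes) in the 28 libraries for 3 pairs of related members, circles for batch 1 and triangles for batch 2, coloured by group. Napa and Syt5 tend to be higher at low RIN, Napb, Syt2 and Rims1 at high RIN, and Rims2 is nearly level.

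Within batch 1 alone 20 members rose with RIN, beside 35.03% of all genes, and 12 fell, beside 36.94%. All 41 slopes kept their sign there. Within batch 2 alone 0 members and 0 of all genes were called in limma, while 38 of the 41 slopes had the same sign. The 2 libraries farthest from the median RIN were placebo replicate 22 and haloperidol replicate 21. Without them 20 members rose, beside 34.6% of all genes, and 12 fell, beside 36.7%. With the 22 libraries of RIN 7.5 or more, 4 rose, beside 8.82% of all genes, and 9 fell, beside 15.3%. Across the 28 libraries RIN and the log2 FPKM sum had a Pearson correlation of -0.734. Over the 41 members the log2 difference of haloperidol against placebo and the slope on RIN had one of -0.951. That difference and the slope on the log2 FPKM sum had one of 0.951, and the 2 slopes one of -0.997 with each other. RIN and the FPKM sum therefore cannot be told apart by these values. All are descriptions, since they come from the same libraries and members are not independent points. The main transcript had a median length of 4325 bases (977 to 16859) in members that rose, 2407 (1196 to 4925) in those that fell and 3797 (2119 to 7959) in those not called. These are lengths of listed RefSeq transcripts, and the full length of the RNA in the tissue was not measured. Rims3, with the shortest listed one, was among those that rose.

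Some libraries lay at the ends of the members' ranges repeatedly. Placebo replicate 32 held the highest value of 15 members and placebo replicate 8 that of 8, while haloperidol replicate 19 held the lowest value of 9 and placebo replicate 2 that of 8. The FPKM sums of these 4 were 402459, 390929, 554440.0 and 556113 in that order. Haloperidol replicate 19 and placebo replicate 2 also had the highest choroid plexus sums of the 28 libraries, 9367 and 7848, and relative depths of 0.471 and 0.5498, toward the low end of the range. The part of either in these low values was not tested. Haloperidol replicate 5 held the highest value of 6 members, and haloperidol replicates 3 and 13 each the lowest of 5. Cortical neuron marker sums were 754.5 in replicate 5, the highest of the 28 libraries, 287 in replicate 13, the lowest, and 538.5 in replicate 3. Stx1a, Syn1, Sncb and Dnm1 were highest in haloperidol replicate 5 and lowest in haloperidol replicate 13. The part of cortical tissue was not tested. Rims1 spanned 39.4-fold between its lowest library, haloperidol replicate 3, at 0.464, and its highest, placebo replicate 8, at 18.3. The deposited FPKM of the 41 members together made up 0.848% to 1.60% of a library's FPKM sum, with 1.23% ± 0.156 for haloperidol and 1.29% ± 0.240 for placebo.

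A second list held 76 further genes of the vesicle cycle, such as Munc18 proteins, liprins, vesicular transmitter transporters, calcium channels of the terminal, and clathrin with its adaptors. Of these 75 were listed in the files and 72 tested. None was called, and 5 had an unadjusted p under 0.05, beside the 6.41% of all genes. Above 0 lay 25 of the 72, with a median log2 difference of -0.058. Slc32a1, the vesicular GABA transporter, had the smallest p. It ran from 77.9 to 111 with haloperidol, with a median of 90.4, and from 63.2 to 96.9 with placebo, with a median of 77.6. The groups overlapped, and 15 of 16 mice given haloperidol lay higher than their batch's placebo mean. Means were 93.03 ± 10.6 and 80.4 ± 11.4, a log2 difference of 0.24 (SE 0.067001, unadjusted p = 0.0013, limma adjusted p = 0.568). The difference was 0.22 with the log2 FPKM sum in the model, and the slope on RIN was -0.038. Also above 0, with the next smallest p, were Ppfia4 (liprin-alpha-4) at 13.7 ± 1.23 and 12.7 ± 0.931, Stxbp2 at 16.9 ± 3.52 and 14.96 ± 4.34 and Cltb, a clathrin light chain, at 118 ± 26.95 and 104 ± 26.5. Below 0 the smallest p were those of Ap2b1, a clathrin adaptor, at 62.8 ± 3.71 and 67.5 ± 4.03, Synj2 at 6.58 ± 1.804 and 8.496 ± 3.11, Stxbp6 at 8.03 ± 1.54 and 9.24 ± 2.27 and Stxbp5l at 6.57 ± 1.4002 and 7.63 ± 2.03. Their log2 differences were 0.11, 0.24 and 0.23 for those above 0 and -0.10, -0.37, -0.22 and -0.22 for those below.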

How the data were processed

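RNA-seq of 28 striatal libraries was used as deposited by the authors, as FPKM per RefSeq transcript (mm9). TopHat2 2.0.6 and Cufflinks are named, per the submitters' processing notes. Gene FPKM was the sum over a gene's transcripts, divided by a median-of-ratios factor for each library. Genes with a mean of at least 1 FPKM were tested on log2(scaled FPKM + 0.5) with limma 3.58.1 in R 4.3.3, with treatment and batch in the model, an intensity trend, and Benjamini-Hochberg adjustment over all genes at 0.05. Models with RIN as the tested term were chosen after seeing the data. Transcripts, and shares with a mean of 5% to 95% of their gene, were fitted in the same way. Each library carries its own mouse number in the labels. No pair of libraries was identical. The members and lists were chosen with earlier results of these data known. All members are described, with full values for the most abundant of each class and the 6 with the smallest p. Other release genes are named up to 4 per direction, by smallest p, as are 5 transcripts per test and 6 members per direction of the batch difference. Depth in reads is unknown, which limits what can be said of the precision of low genes.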

Additional observations from a re-analysis of the deposited data

How the results depend on the processing

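No member was called for haloperidol against placebo in any of 41 alternatives, which were other pseudocounts, filters, scalings, covariates, weights and subsets and each library left out. No paired analysis was made, because each library has its own mouse number and the labels used here name no pairs. Members above 0 numbered 7 with the common FPKM sum (31.3% of all genes) and 5 after quantile normalization (50.6%). With a library left out they numbered 10 to 14. The count of members at an unadjusted p under 0.05 moved from 3 to between 1 (without placebo replicate 16) and 8 (without placebo replicate 2). Beside these counts stood 3.94% and 13.1% of all genes. The members' count moved by over 1.5 times for 19 of 28 libraries left out. With array weights 25 members were called between batches, beside 51.8% of all genes. Members rising and falling with RIN numbered 31 and 2 with the common sum, beside 61.9% and 13.4% of all genes. They numbered 33 and 3 after quantile normalization, beside 34.9% and 34.0%, and 0 and 0 in batch 2 alone. At RIN of 7.5 or more 4 rose and 9 fell, beside 8.82% and 15.3%. With a library left out those rising and falling numbered 17 to 21 and 11 to 13. The subsets by RIN, FPKM sum and batch were chosen after seeing the data.

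The sign of 26 members never turned. With the common sum it turned for Syt7 (-0.080), Syt11 (-0.038), Syn3 (-0.071), Rab3a (-0.0029) and Dnm1 (-0.065). After quantile normalization it turned for Vamp2 (-0.032), Syt7 (-0.022), Syt11 (-0.041), Syp (-0.044), Rab3a (-0.045), Sncb (-0.023) and Dnm1 (-0.079). Without the batch term it turned for Stx1a (0.018) and Syn2 (0.014), with RIN in the model for Syn3 (-0.0041), and with array weights for Syt7 (-0.0069) and Syn2 (0.0074). With the log2 FPKM sum in the model it turned for Napa (-0.027), Syt6 (0.036), Syt11 (-0.012), Syn2 (0.019), Synpr (0.036), Rab3a (-0.018), Rab3c (0.014), Sncb (-0.029) and Dnm1 (-0.021). At RIN of 7.5 or more it turned for Syt6 (0.029), Syt7 (-0.013), Syn3 (-0.0028) and Dnm1 (-0.028), and at an FPKM sum of at most 540000 for Syn3 (-0.015). In batch 1 alone it turned for Syn2 (0.014), and in batch 2 alone for Stx1a (0.049), Syt7 (-0.036), Cplx1 (0.025) and Syn3 (-0.15). With a library left out the differences of those that turned ran from -0.081 to 0.047 for Stx1a, -0.0098 to 0.030 for Syt7, -0.032 to 0.012 for Cplx1, -0.047 to 0.018 for Syn2, -0.031 to 0.056 for Syn3 and -0.0071 to 0.054 for Dnm1. The cause was not tested.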
